A study of Homo sapiens with 20 samples.

Results

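The NRF2 antioxidant genes described here are 10 genes taken by symbol: NFE2L2, KEAP1, GCLC, GCLM, TXNRD1, SRXN1, NQO1, HMOX1, ME1 and SLC7A11. All 10 were measured, by 23 probe sets that name a single one of them, among 19775 genes with such a probe set on Affymetrix 3′ arrays. Each gene is given by its brightest probe set, and the other 13 probe sets served as a check. KEAP1, SRXN1 and HMOX1 were each read by 1 probe set.

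NFE2L2 encodes NRF2, a basic leucine zipper transcription factor. KEAP1 holds NRF2 in the cytoplasm and presents it to a cullin-3 ubiquitin ligase for degradation. Oxidants and electrophiles modify KEAP1, NRF2 accumulates, pairs with a small MAF protein and binds antioxidant response elements in front of its target genes. Those targets import cystine for glutathione (SLC7A11), make glutathione (GCLC and GCLM), reduce thioredoxin and peroxiredoxins (TXNRD1 and SRXN1), reduce quinones (NQO1), degrade haem (HMOX1) and supply NADPH (ME1). NRF2 is regulated mainly through its protein, which these arrays do not read.

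The samples are 2 human prostate cancer lines, LNCaP and its castration-resistant derivative C42B. In a first experiment C42B cells received siRNA against the histone demethylase LSD1 (siLSD1) or the control siNTC for 6 h and were then kept for 96 h in 10% charcoal-stripped serum (CSS), which is low in steroids (3 arrays per group). In a second, LNCaP cells received 50 nM siLSD1 or siNTC and grew for 96 h in 10% fetal bovine serum (3 arrays per group, each from pooled wells). In an androgen experiment, after 72 h of CSS, C42B cells were given 100 nM dihydrotestosterone (DHT) or the ethanol vehicle, labelled Veh+, for 16 h (4 arrays per group). Each line is 1 established culture, and siLSD1 is 1 label, so an effect of the siRNA sequence and one of lower LSD1 cannot be told apart. The C42B replicates are separate wells, and nothing says whether the wells were independent cultures. The p-values then measure only how far these samples spread, which may be technical. The same holds in LNCaP if the pools were not independent cultures.

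The antioxidant response element is the sequence through which these genes are linked, so the matches to its core, TGACNNNGC on either strand, are shown for the members' promoters. RefSeq promoter windows on GRCh38.p14, 250 bases before to 50 after a transcription start, were matched by symbol for 8 of the 10 members and not for HMOX1 or SLC7A11. Of 11 windows 5 held the core, belonging to 4 of the 8 genes (GCLM, ME1, TXNRD1 and KEAP1), and 4687 of all 35116 windows (13.3%) held it. The 6 matches that lay wholly before the start are printed 5′ to 3′ on the gene's strand, with the core in capitals, as TGACNNNGC or as its reverse complement.
GCLM, chr1:93909444-93909476, minus strand: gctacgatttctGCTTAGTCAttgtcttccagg
ME1, chr6:83431168-83431200, minus strand: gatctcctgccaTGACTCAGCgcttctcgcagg
TXNRD1, chr12:104215668-104215700, plus strand: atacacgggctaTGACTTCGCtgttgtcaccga
TXNRD1, chr12:104286918-104286950, plus strand: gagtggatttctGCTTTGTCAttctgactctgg
KEAP1, chr19:10502805-10502837, minus strand: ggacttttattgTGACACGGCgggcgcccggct
KEAP1, chr19:10502782-10502814, minus strand: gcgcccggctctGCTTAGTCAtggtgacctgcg
The GCLM core and the second KEAP1 core read the same 9 letters, TGACTAAGC on the opposite strand, and end 25 and 22 bases before the start. The pair of TXNRD1 matches belongs to different transcription starts and ends 90 and 93 bases before them. The ME1 core, ending 128 bases before the start, also holds the letters of the AP-1 motif TGANTCA. The windows of NFE2L2, GCLC, SRXN1 and NQO1 held no match, which says only that these letters are not in these windows.

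Median array intensity lay between 63.3 and 65.1 in LNCaP, between 78.4 and 81.2 for siRNA in C42B and between 84.1 and 86.1 for DHT and vehicle, so levels below are compared only within an experiment. KDM1A, the transcript of LSD1, was lower in every siLSD1 array (7.80 to 8.03 in C42B, 7.25 to 7.40 in LNCaP) than in any siNTC array (10.21 to 10.36 and 9.95 to 10.23). The 6 luminal markers with a probe set of their own averaged 7.64 or more in every group. The androgen-responsive KLK2, KLK3 and TMPRSS2 among them passed higher in all 3 comparisons, by 0.36 to 0.77 with siLSD1 and by 5.19, 2.74 and 3.08 with DHT, with which KRT8 and KRT18 also passed higher and FOLH1 lower (−0.55). The basal keratins KRT5 and KRT14 averaged 4.32 to 6.49, and KRT14, dim in every group, passed higher with siLSD1 in LNCaP (0.36) and with DHT (0.32). Of 8 stromal, endothelial and leukocyte markers, 4 or 5 averaged at least 6 in a group. By group, the highest marker mean was 7.81 to 8.94 and the lowest 3.51 to 4.16, and the leukocyte marker PTPRC averaged 3.51 to 4.16. The only marker to pass in any comparison was COL3A1, lower with siLSD1 in LNCaP (−0.77) and with DHT. Its DHT mean of 5.60 lay under the dim level of 6, against which it was lower by at least 1.20. Summed, these 8 reached 9.62 to 9.86 (siLSD1) and 9.70 to 9.80 (siNTC) in C42B, 9.51 to 9.55 and 9.55 to 9.70 in LNCaP, and 9.91 to 10.07 (DHT) and 10.05 to 10.25 (vehicle) on the log2 scale. Actin control probes at the 3′ end exceeded those at the 5′ end by 1.17 to 1.31 (siLSD1) and 1.13 to 1.19 (siNTC) in C42B, 0.93 to 1.09 and 0.82 to 0.98 in LNCaP, and 0.91 to 1.16 (DHT) and 0.90 to 1.12 (vehicle), also in log2 units. Their part in the results was not tested. In cultures read as a whole, fewer expressing cells and less RNA per cell cannot be told apart.

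All values below are log2 intensities as group mean ± SD over the arrays, and all changes are log2 fold changes ± SE from limma, with two-sided p-values adjusted over the 19775 genes. The threshold for passing was an adjusted p of 0.05. None of the 10 genes had a group mean under 6, the level below which a probe set was called dim.

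DHT split the glutathione genes. GCLC fell to less than 50% of its vehicle level and SLC7A11 fell with it, while GCLM, the partner subunit of GCLC, rose. SRXN1 rose and NQO1 fell by small amounts. Of the 10 genes 2 passed higher (13.4% of all genes did) and 3 lower (19.4% of all genes), and their median change was −0.03 beside 0.01 over all genes. With each array centred on its median the genes passing in this comparison went from 40.9% to 62.0% higher, and the same 5 of the 10 genes passed in the same directions.

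In LNCaP, siLSD1 came with a lower TXNRD1 and a higher SLC7A11, each changed by close to 1 on the log2 scale in opposite directions. SRXN1 and GCLC were higher and NFE2L2 lower by 0.31 or less. Of the 10 genes 3 passed higher and 2 lower, against 13.4% and 12.5% of all genes, with a median change of −0.11 beside 0.01.

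In C42B, siLSD1 came with small changes of these genes at their brightest probe sets. ME1 and KEAP1 passed higher and TXNRD1 and NQO1 lower, none by more than 0.35. That is 2 of 10 in each direction, where 8.66% of all genes passed higher and 9.39% lower, and the median change was 0.05 beside −0.02 over all genes. Other probe sets of ME1 (0.67) and SLC7A11 (0.46 and −0.44) passed with larger changes over all single-gene probe sets. The effects of siLSD1 in the lines were then compared with each other. The difference, C42B minus LNCaP, passed above 0 for TXNRD1, GCLM, ME1 and KEAP1 and below 0 for SLC7A11 and SRXN1, where 5.56% of all genes passed above 0 and 6.07% below. This difference holds the line, the serum and the transfection protocol together, which cannot be told apart, and it shares its arrays with both siLSD1 comparisons.

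**Figure D1:**
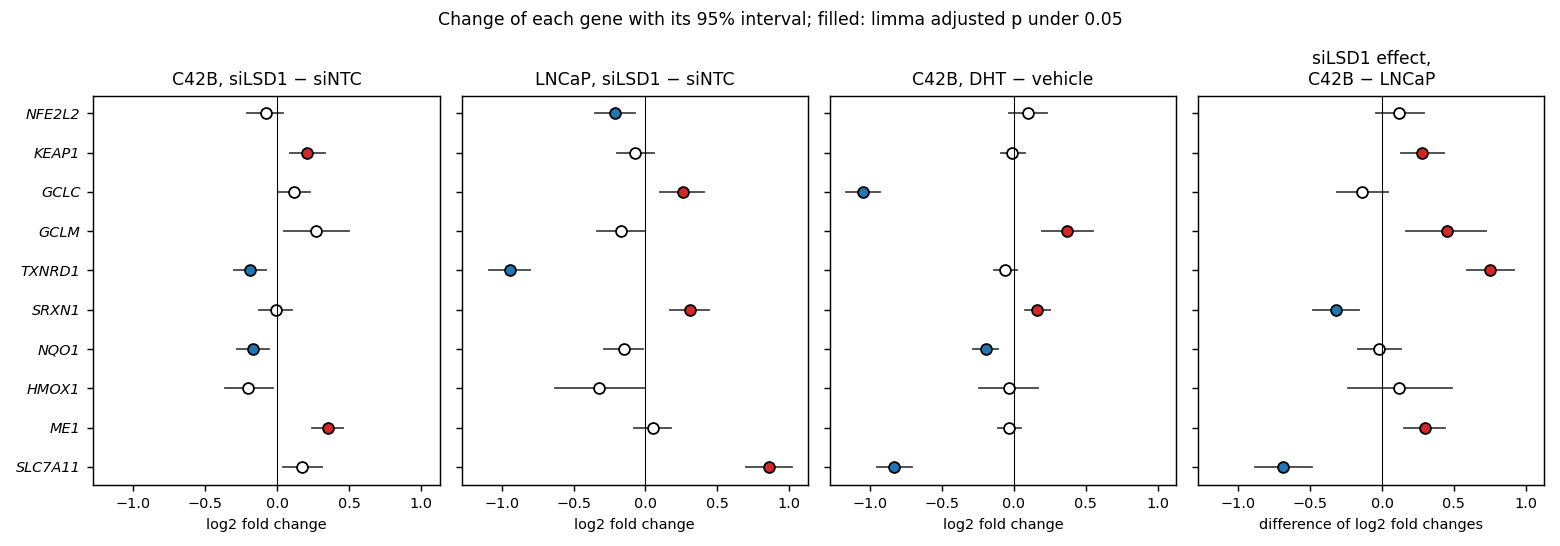
Log2 fold change of each of the 10 genes (points) with its 95% interval (lines) in the 3 comparisons, and the difference of the siLSD1 effects in the last panel; filled points passed (red higher, blue lower). GCLC with DHT (−1.05) and TXNRD1 with siLSD1 in LNCaP (−0.94) lie farthest to the left.

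**Figure D2:**
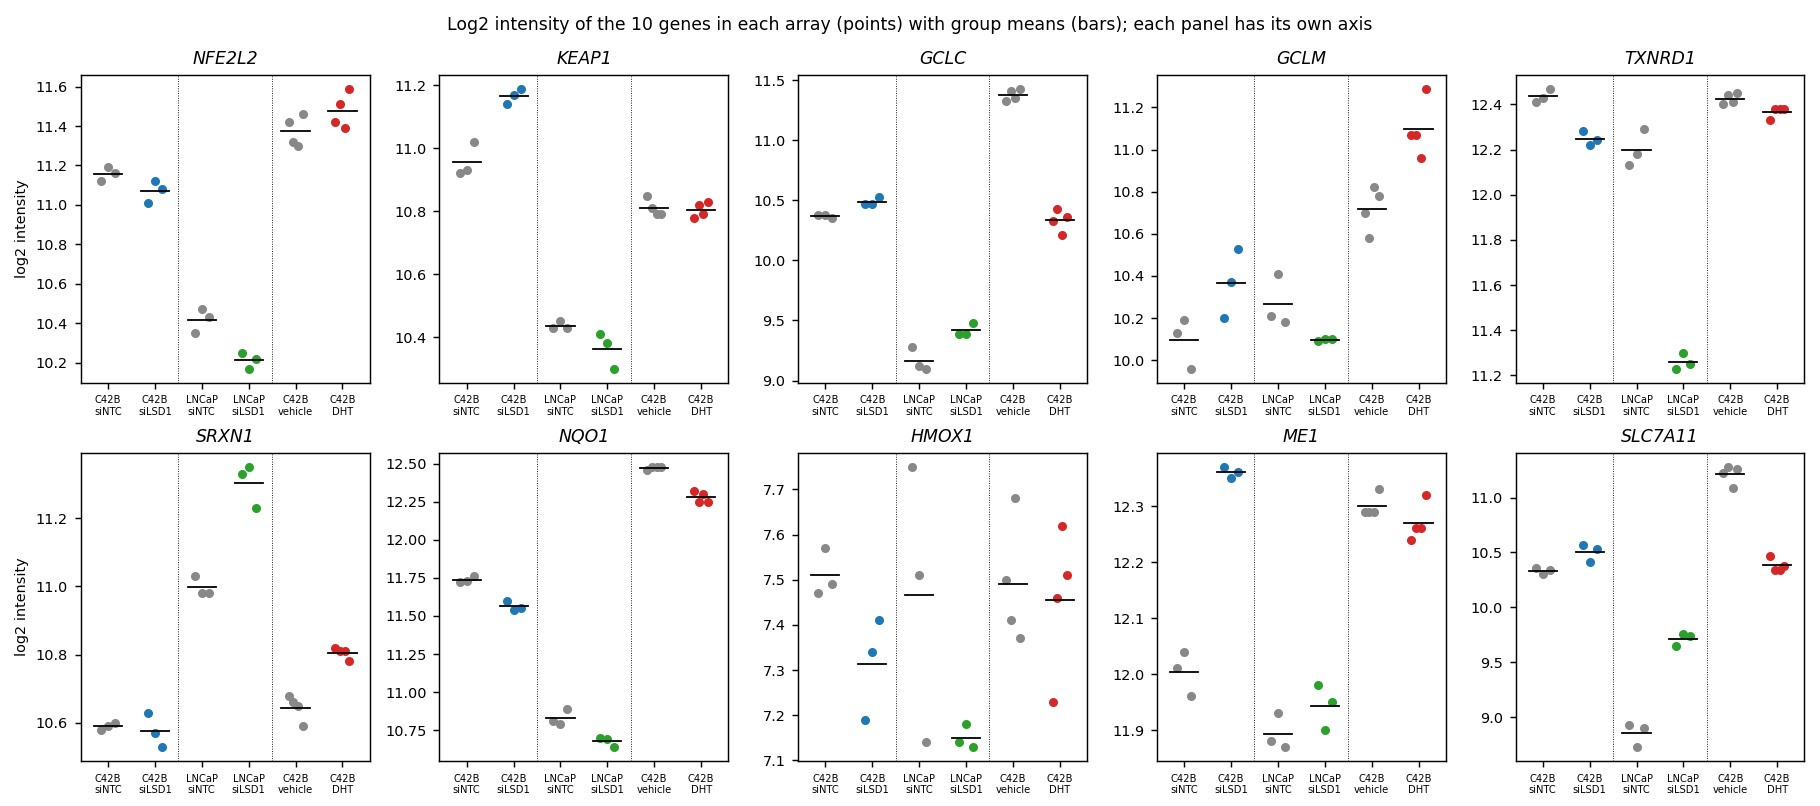
Log2 intensity of each gene (vertical axis, a separate range per panel) in the 20 arrays, 1 point per array, with bars at the group means; dotted lines part the experiments, between which levels are not comparable. Within LNCaP, TXNRD1 is lower in the 3 siLSD1 arrays (11.23 to 11.30) than in any siNTC array. The DHT arrays of GCLC (10.21 to 10.43) and SLC7A11 (10.34 to 10.47) lie below all vehicle arrays.

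NFE2L2, the gene of NRF2 itself, differed little between groups at its brightest probe set in all 3 experiments. With siLSD1 in LNCaP it measured 10.25, 10.17 and 10.22, and with siNTC 10.35, 10.47 and 10.43, so that the groups did not overlap. The fall was 0.21 ± 0.06 (log2 fold change −0.21, adjusted p = 0.036). It did not pass without siLSD1 replicate 1, 2 or 3 (adjusted p = 0.061, 0.13 and 0.097) or without siNTC replicate 2 or 3 (0.11 and 0.094), nor with the mean of its probe sets (−0.20, adjusted p = 0.11) or when every single-gene probe set was tested (adjusted p = 0.053). In C42B the groups overlapped, at 11.07 ± 0.06 (siLSD1) and 11.16 ± 0.03 (siNTC) (SD, n = 3 each; 95% interval of the change −0.21 to 0.04). They overlapped with DHT as well, at 11.48 ± 0.09 against 11.38 ± 0.08 with vehicle (SD, n = 4 each; interval −0.03 to 0.23). With the mean of the 3 NFE2L2 probe sets the DHT change was 0.13 and passed (adjusted p = 0.033). The probe set next in brightness, with a mean of 6.61, passed over all single-gene probe sets in 2 comparisons. It changed by −0.38 with siLSD1 in LNCaP (adjusted p = 0.028) and by 0.29 with DHT (adjusted p = 0.0057), and by −0.02 in C42B with siLSD1. The dimmest, with a mean of 5.15, passed in no comparison.

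KEAP1, the adaptor that directs NRF2 to degradation, measured 11.14, 11.17 and 11.19 with siLSD1 in C42B and 10.92, 10.93 and 11.02 with siNTC. Every siLSD1 array was above every siNTC array, and the rise was 0.21 ± 0.05 (adjusted p = 0.029). It did not pass without siLSD1 replicate 2 or 3 (adjusted p = 0.094 and 0.11) or siNTC replicate 1 or 2 (0.089 and 0.092), nor when every single-gene probe set was tested (0.051). KEAP1 in LNCaP was 10.36 ± 0.05 after siLSD1 and 10.43 ± 0.01 after siNTC (SD, n = 3 each; interval of the change −0.20 to 0.06). The difference between the lines was 0.28 ± 0.07 (adjusted p = 0.023) and did not pass without C42B siLSD1 replicate 2 or 3, C42B siNTC replicate 1 or 2, LNCaP siLSD1 replicate 3 or LNCaP siNTC replicate 2 (adjusted p = 0.052 to 0.062). With DHT and vehicle KEAP1 stood at the same mean of 10.81 (interval −0.09 to 0.08).

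SLC7A11 is the transport subunit of system xc-, the exchanger that brings in cystine, the source of cysteine for glutathione. With DHT it measured 10.47, 10.34, 10.34 and 10.38, and with vehicle 11.22, 11.28, 11.09 and 11.26. The highest DHT array lay 0.62 below the lowest vehicle array. The change was −0.83 ± 0.05, or 1.77-fold lower (adjusted p = 2.6e-06), and 347 of the 19775 genes had a more negative one.

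With siLSD1 in LNCaP SLC7A11 went the other way. It measured 9.65, 9.76 and 9.74 against 8.93, 8.73 and 8.90 with siNTC, a rise of 0.86 ± 0.07 or 1.82-fold (adjusted p = 7.2e-05), and 221 genes rose more. In C42B it was 10.57, 10.41 and 10.53 with siLSD1 and 10.36, 10.30 and 10.34 with siNTC. The C42B groups did not overlap, and the change of 0.17 ± 0.06 did not pass (adjusted p = 0.080, interval 0.04 to 0.31). The siLSD1 effect was smaller in C42B than in LNCaP by 0.69 ± 0.09 (difference −0.69, adjusted p = 4.9e-04).

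The 3 SLC7A11 probe sets did not move alike with siLSD1. The one next in brightness, with a mean of 9.71, followed the brightest: it rose by 0.46 ± 0.07 in C42B (adjusted p = 0.0061 over all single-gene probe sets) and by 0.92 ± 0.10 in LNCaP (adjusted p = 3.0e-04). The dimmest, with a mean of 7.16, fell with siLSD1, from 7.28 ± 0.01 to 6.84 ± 0.08 in C42B (−0.44, adjusted p = 0.0037) and from 6.76 ± 0.08 to 6.50 ± 0.10 in LNCaP (−0.25, adjusted p = 0.048; SD, n = 3 each). With DHT all 3 fell, by 0.83, 0.90 and 0.19 from the brightest to the dimmest. With the mean of the 3, the rise in LNCaP was 0.51 (adjusted p = 2.5e-04), the change in C42B 0.06 and the difference between the lines −0.44 (adjusted p = 0.0016).

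GCLC is the catalytic subunit of glutamate-cysteine ligase, the rate-limiting enzyme of glutathione synthesis. With DHT it measured 10.33, 10.43, 10.21 and 10.36, and with vehicle 11.33, 11.41, 11.35 and 11.43. The groups were 0.91 apart at their nearest arrays. The change was −1.05 ± 0.05, or 2.07-fold lower (adjusted p = 4.6e-07), and 202 genes had a more negative one. The other GCLC probe sets fell as well, by 1.08 and 0.66 (adjusted p = 6.9e-07 and 9.6e-05).

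With siLSD1 in LNCaP GCLC measured 9.39, 9.39 and 9.48 against 9.28, 9.12 and 9.10 with siNTC. The rise was 0.26 ± 0.07 (adjusted p = 0.025), with no overlap. It did not pass without siLSD1 replicate 1, 2 or 3 (adjusted p = 0.055, 0.061 and 0.097), without siNTC replicate 2 or 3 (0.081 and 0.082), or with the mean of the probe sets (0.17, adjusted p = 0.065). GCLC in C42B was 10.49 ± 0.03 after siLSD1 and 10.37 ± 0.02 after siNTC (SD, n = 3 each), and its change of 0.12 ± 0.05 did not pass (adjusted p = 0.13, interval 0.01 to 0.23).

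GCLM, the modifier subunit that lowers the glutamate demand of GCLC, rose with DHT. It measured 11.07, 11.07, 10.96 and 11.29 against 10.70, 10.58, 10.82 and 10.78 with vehicle, without overlap. The change was 0.37 ± 0.08 (adjusted p = 0.0047), opposite in sign to that of GCLC. Its other probe sets both changed by 0.18 and did not pass (adjusted p = 0.052 and 0.18).

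With siLSD1 GCLM was 10.37 ± 0.16 against 10.10 ± 0.12 in C42B (change 0.27 ± 0.10, adjusted p = 0.095) and 10.10 ± 0.00 against 10.27 ± 0.13 in LNCaP (change −0.17 ± 0.07, adjusted p = 0.13; SD, n = 3 each). Neither passed. In C42B it passed without siLSD1 replicate 1 (0.36, adjusted p = 0.033). The other GCLM probe sets fell in LNCaP by 0.69 ± 0.11 and 0.76 ± 0.11 (adjusted p = 0.0026 and 0.0015), and with the mean of all 3 the change was −0.54 (adjusted p = 0.0011). The difference between the lines was 0.45 ± 0.13 (adjusted p = 0.039), 0.91 and 1.23 for the other probe sets, and 0.86 with the mean. At the brightest probe set it did not pass without C42B siLSD1 replicate 2 or 3, C42B siNTC replicate 1 or 3, any 1 of the LNCaP siLSD1 arrays or LNCaP siNTC replicate 2 (adjusted p = 0.064 to 0.093).

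TXNRD1 is cytosolic thioredoxin reductase, a selenoprotein that keeps thioredoxin reduced with electrons from NADPH. In LNCaP it measured 11.23, 11.30 and 11.25 with siLSD1 and 12.13, 12.18 and 12.29 with siNTC. The nearest arrays were 0.84 apart, and the change was −0.94 ± 0.06, or 1.92-fold lower (adjusted p = 2.7e-05). A more negative change was seen for 232 genes. In C42B it measured 12.28, 12.22 and 12.24 against 12.41, 12.43 and 12.47, a change of −0.19 ± 0.05 (adjusted p = 0.034).

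The C42B fall of TXNRD1 did not pass without siLSD1 replicate 2 or 3 (adjusted p = 0.12 each) or without siNTC replicate 1, 2 or 3 (0.064, 0.089 and 0.098). It also did not pass with the mean of its probe sets (−0.13, adjusted p = 0.091) or when every single-gene probe set was tested (0.061). The LNCaP fall passed whichever array was left out. The fall was 0.75 ± 0.08 smaller in C42B (adjusted p = 8.0e-05). With DHT TXNRD1 was 12.37 ± 0.02 against 12.43 ± 0.02 with vehicle (SD, n = 4 each; change −0.06 ± 0.04, adjusted p = 0.26). The other TXNRD1 probe set averaged 3.00 over the 20 arrays, below the dim level. Averaged in, it brought the LNCaP change to −0.46 (adjusted p = 0.0017) and the difference between the lines to 0.33 (adjusted p = 0.028).

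SRXN1, sulfiredoxin, repairs over-oxidized peroxiredoxins. In LNCaP it measured 11.33, 11.35 and 11.23 with siLSD1 against 11.03, 10.98 and 10.98 with siNTC, a rise of 0.31 ± 0.06 (adjusted p = 0.0061). With DHT it measured 10.82, 10.81, 10.81 and 10.78 against 10.68, 10.66, 10.65 and 10.59 with vehicle, a rise of 0.16 ± 0.04 (adjusted p = 0.0085). Neither pair of groups overlapped. In C42B the siLSD1 and siNTC groups overlapped, at 10.58 ± 0.05 and 10.59 ± 0.01 (SD, n = 3 each; interval of the change −0.13 to 0.10), and the difference between the lines was −0.32 ± 0.07 (adjusted p = 0.013).

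NQO1 reduces quinones in a single step and is a standard readout of NRF2. With DHT it measured 12.32, 12.25, 12.30 and 12.25 against 12.46, 12.48, 12.48 and 12.48 with vehicle. Each DHT array was below each vehicle array, and the change was −0.19 ± 0.04 (adjusted p = 0.0027). All 3 NQO1 probe sets fell with DHT, by 0.17 to 0.21. With siLSD1 in C42B it measured 11.60, 11.54 and 11.55 against 11.72, 11.73 and 11.76, a change of −0.17 ± 0.05 (adjusted p = 0.042).

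That C42B call on NQO1 was near the threshold. It ended without siLSD1 replicate 2 or 3 (adjusted p = 0.14 each), without siNTC replicate 1, 2 or 3 (0.086, 0.10 and 0.11), with the mean of the probe sets (−0.15, adjusted p = 0.061) and when every single-gene probe set was tested (0.076). NQO1 in LNCaP was 10.68 ± 0.03 after siLSD1 and 10.83 ± 0.06 after siNTC (SD, n = 3 each), a change of −0.15 ± 0.06 that did not pass (adjusted p = 0.091). It passed with bright genes only and with eBayes with a trend and robust. The other NQO1 probe sets there changed by 0.15 and −0.10 and did not pass over all single-gene probe sets (adjusted p = 0.19 and 0.37). At the brightest probe set the difference between the lines was −0.02 (interval −0.17 to 0.13).

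ME1, cytosolic malic enzyme, makes NADPH while converting malate to pyruvate. In C42B it measured 12.37, 12.35 and 12.36 with siLSD1 against 12.01, 12.04 and 11.96 with siNTC, without overlap. The rise was 0.35 ± 0.05 (adjusted p = 0.0031) and passed whichever array was left out. A further probe set rose by 0.67 ± 0.07 (adjusted p = 0.0016), and the dimmest, with a mean of 6.03, did not pass. In LNCaP the groups overlapped, at 11.94 ± 0.04 and 11.89 ± 0.03 (SD, n = 3 each; interval −0.08 to 0.18), and the difference between the lines was 0.30 ± 0.07 (adjusted p = 0.013). With DHT the change was −0.03 (interval −0.11 to 0.05).

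HMOX1, haem oxygenase-1, passed in no comparison, at group means of 7.15 to 7.51. With siLSD1 in C42B it measured 7.19, 7.34 and 7.41 against 7.47, 7.57 and 7.49 with siNTC (change −0.20 ± 0.07, adjusted p = 0.095). In LNCaP it measured 7.14, 7.18 and 7.13 against 7.75, 7.51 and 7.14 (change −0.32 ± 0.14, adjusted p = 0.13). The third siNTC array lay among the siLSD1 arrays, and without it the change was −0.48 and passed (adjusted p = 0.0067). With DHT the groups overlapped (interval −0.24 to 0.17).

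**Figure D3:**
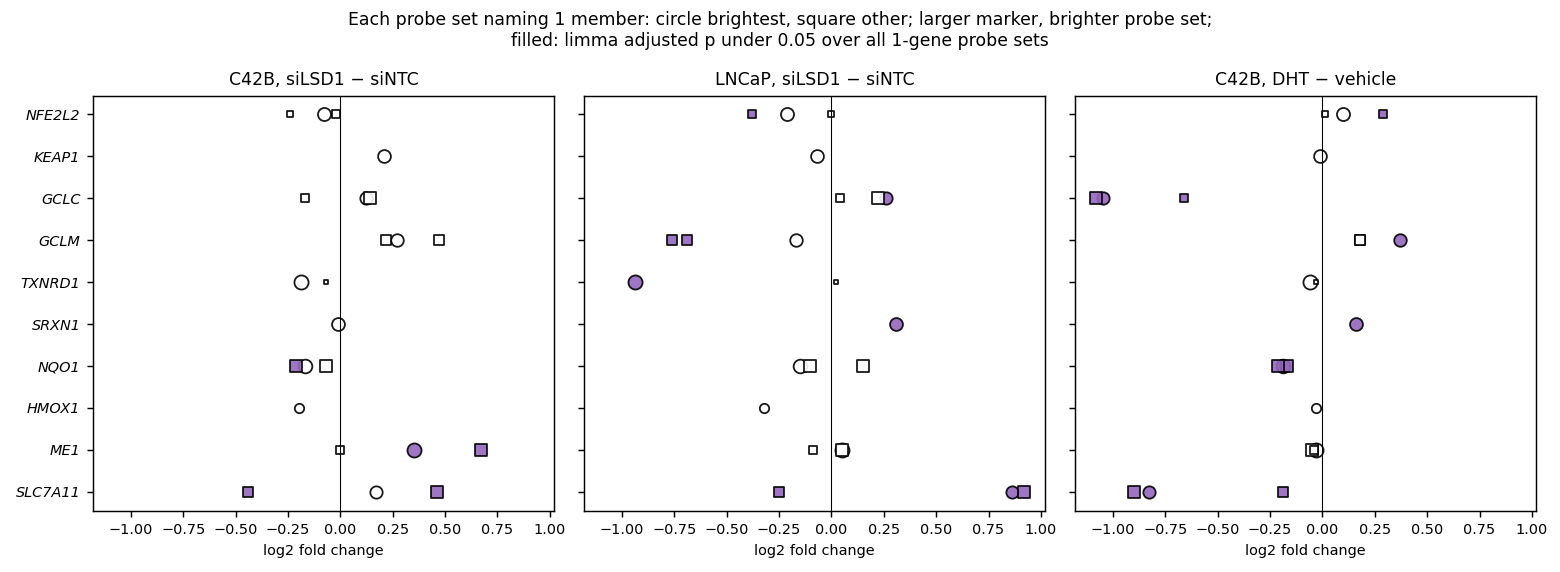
Log2 fold change (horizontal axis) of each of the 23 probe sets in the 3 comparisons, by gene; circles are the brightest probe sets, squares the others, larger markers are brighter probe sets, and filled markers passed over all single-gene probe sets. The SLC7A11 squares lie on both sides of 0 with siLSD1 (0.46 and −0.44 in C42B) and on 1 side with DHT, and the pair of GCLM squares in LNCaP (−0.69 and −0.76) lies left of its circle (−0.17).

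Around NRF2, 9 of 10 regulator genes were measured (all but MAFK). None passed with siLSD1 in C42B, at changes of −0.20 to 0.09 with a median of −0.02. Of all genes 8.66% passed higher and 9.39% lower there. In LNCaP 2 rose and 3 fell, beside 13.4% and 12.5% of all genes, with a median of 0.05. MAFF, a small MAF partner of NRF2, changed by 0.36 ± 0.11 (adjusted p = 0.039) and BTRC, a receptor of the other ubiquitin ligase that takes NRF2, by 0.29 ± 0.07 (adjusted p = 0.019). NFE2L1, the related factor NRF1, fell by 0.26 ± 0.06 (adjusted p = 0.0095), and CUL3, the cullin that KEAP1 recruits, and SQSTM1, the autophagy receptor p62 that binds KEAP1, each fell by 0.23 (adjusted p = 0.013 and 0.028). With DHT 2 rose and 3 fell, beside 13.4% and 19.4% of all genes, with a median of 0.02. The small MAF gene MAFG rose by 0.33 ± 0.05 (adjusted p = 7.5e-04) and RBX1, the RING subunit of the ligase, by 0.13 ± 0.04 (adjusted p = 0.027). NFE2L1 changed by −0.17 ± 0.05 (adjusted p = 0.023) and the kinase gene GSK3B by −0.23 ± 0.05 (adjusted p = 0.0037). BACH1, the repressor that competes with NRF2, changed by −0.14 ± 0.04 (adjusted p = 0.031). MAFF changed by 0.72 with the mean of all its probe sets, with which CUL3 (0.02), SQSTM1 (−0.11), BTRC (0.05) and BACH1 (−0.01) did not pass. With DHT, BACH1 did not pass after quantile normalization or median centring, RBX1 after quantile normalization, or NFE2L1 after median centring or with the mean of all probe sets (−0.09). Their calls also ended without DHT replicate 1 or 2 or vehicle replicate 1 or 3 (BACH1, adjusted p up to 0.093), without DHT replicate 1 or 2 or any 1 vehicle array (RBX1, up to 0.073), and without DHT replicate 1 or vehicle replicate 2 or 3 (NFE2L1, up to 0.065). Without LNCaP siLSD1 replicate 2 neither MAFF, CUL3, SQSTM1 nor BTRC passed (adjusted p = 0.12, 0.061, 0.10 and 0.067). The MAFF call also ended without siLSD1 replicate 1 or siNTC replicate 2 or 3, that of SQSTM1 without any other LNCaP array but siNTC replicate 1, and that of BTRC without siLSD1 replicate 3.

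Of 26 further NRF2 target genes 24 were measured. With DHT 4 rose and 4 fell, shares near the 13.4% and 19.4% of all genes, with a median of −0.02. ABCC1, which exports glutathione conjugates, rose by 1.56 ± 0.04 (adjusted p = 1.3e-08), UGDH, which makes UDP-glucuronic acid, by 0.61 ± 0.07 (adjusted p = 1.1e-04) and GSR, glutathione reductase, by 0.57 ± 0.04 (adjusted p = 8.0e-06). EPHX1, an epoxide hydrolase, and TRIM16L each fell by 0.35 (adjusted p = 3.4e-04 and 0.0024). SLC3A2, the heavy chain that pairs with SLC7A11, fell by 0.28 ± 0.04 (adjusted p = 5.3e-04). In LNCaP, where SLC7A11 rose with siLSD1, SLC3A2 fell by 0.23 ± 0.07 (adjusted p = 0.040), and that call ended without siLSD1 replicate 1, 2 or 3, without siNTC replicate 2 or 3 (adjusted p = 0.079 to 0.13) and with every single-gene probe set tested.

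With siLSD1 in LNCaP 5 of the 24 rose and 6 fell, beside 13.4% and 12.5% of all genes, with a median of −0.05. Thioredoxin itself, TXN, fell by 0.57 ± 0.06 (adjusted p = 3.2e-04), beside the fall of its reductase TXNRD1. The carbonyl reductases CBR3 and CBR1 fell by 0.87 ± 0.07 and 0.44 ± 0.08 (adjusted p = 6.8e-05 and 0.0036). GSS, glutathione synthetase, rose by 0.53 ± 0.06 (adjusted p = 2.9e-04), EPHX1 by 0.35 ± 0.06 (adjusted p = 0.0034) and IDH1, an NADPH-making isocitrate dehydrogenase, by 0.33 ± 0.06 (adjusted p = 0.0037). These 6 passed whichever array was left out.

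With siLSD1 in C42B 5 of the 24 rose and 2 fell, beside 8.66% and 9.39% of all genes, with a median of 0.06. IDH1 rose by 0.39 ± 0.05 (adjusted p = 0.0021), and CBR3 fell by 0.36 ± 0.06 (adjusted p = 0.0059). PGD, of the pentose phosphate pathway, rose by 0.25 ± 0.06 (adjusted p = 0.028), PIR by 0.24 ± 0.05 (adjusted p = 0.017), and TXN fell by 0.26 ± 0.07 (adjusted p = 0.046). TXN did not pass when any array was left out (adjusted p up to 0.13), and neither PGD nor PIR passed without siLSD1 replicate 2, siLSD1 replicate 3 or siNTC replicate 1, nor PGD without siNTC replicate 3 or PIR without siNTC replicate 2 (adjusted p up to 0.10 and 0.074). With the mean of its probe sets PGD changed by 0.02. The remaining rises were those of GSS (0.22) and FTL (0.20), named after their values were seen. Their calls ended in 4 and 5 of the 6 fits with an array left out, and that of FTL also with a block for replicate number. CBR3 fell less in C42B than in LNCaP, by 0.51 ± 0.09 (adjusted p = 0.0033).

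Antioxidant genes that are not typical NRF2 targets were measured for 14 of 15 symbols (all but PRDX5). With DHT 3 rose and 7 fell, beside 13.4% and 19.4% of all genes, with a median of −0.11. Of the 7 falls, those of GPX1 (−0.13), GPX4 (−0.12) and PRDX2 (−0.14), named after their values were seen, did not pass with median centring. The GPX1 and GPX4 calls also ended with the replicate block. That of GPX4 ended in 7 of 8 fits with an array left out and with every probe set tested. With the mean of all probe sets neither PRDX2 (−0.10) nor TXNRD2 (−0.09, −0.20 at its brightest) passed. Glutaredoxin, GLRX, which uses glutathione to reduce protein disulfides, rose by 1.55 ± 0.10 (adjusted p = 1.8e-06), and the peroxiredoxins PRDX6 and PRDX4 rose by 0.25 and 0.24 (adjusted p = 6.6e-04 and 0.0011). TXNIP, which binds and inhibits thioredoxin, fell by 0.73 ± 0.04 (adjusted p = 1.0e-06), catalase, CAT, by 0.38 ± 0.04 (adjusted p = 3.7e-05) and SOD2, the mitochondrial superoxide dismutase, by 0.31 ± 0.06 (adjusted p = 0.0019). With siLSD1 in LNCaP 5 rose and none fell, beside 13.4% and 12.5% of all genes, with a median of 0.11: TXNIP (0.71 ± 0.06), GLRX (0.57 ± 0.06) and mitochondrial thioredoxin reductase, TXNRD2 (0.54 ± 0.08), were the largest (adjusted p = 6.3e-05, 3.8e-04 and 0.0019). In C42B 2 rose, beside 8.66% of all genes, GLRX (0.60 ± 0.05, adjusted p = 5.9e-04) and TXNRD2 (0.23 ± 0.06, adjusted p = 0.027), with a median of 0.08. That TXNRD2 call ended without siLSD1 replicate 2 or 3 or siNTC replicate 1 or 3 (adjusted p up to 0.095) and with the mean of its probe sets (0.06).

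**Figure D4:**
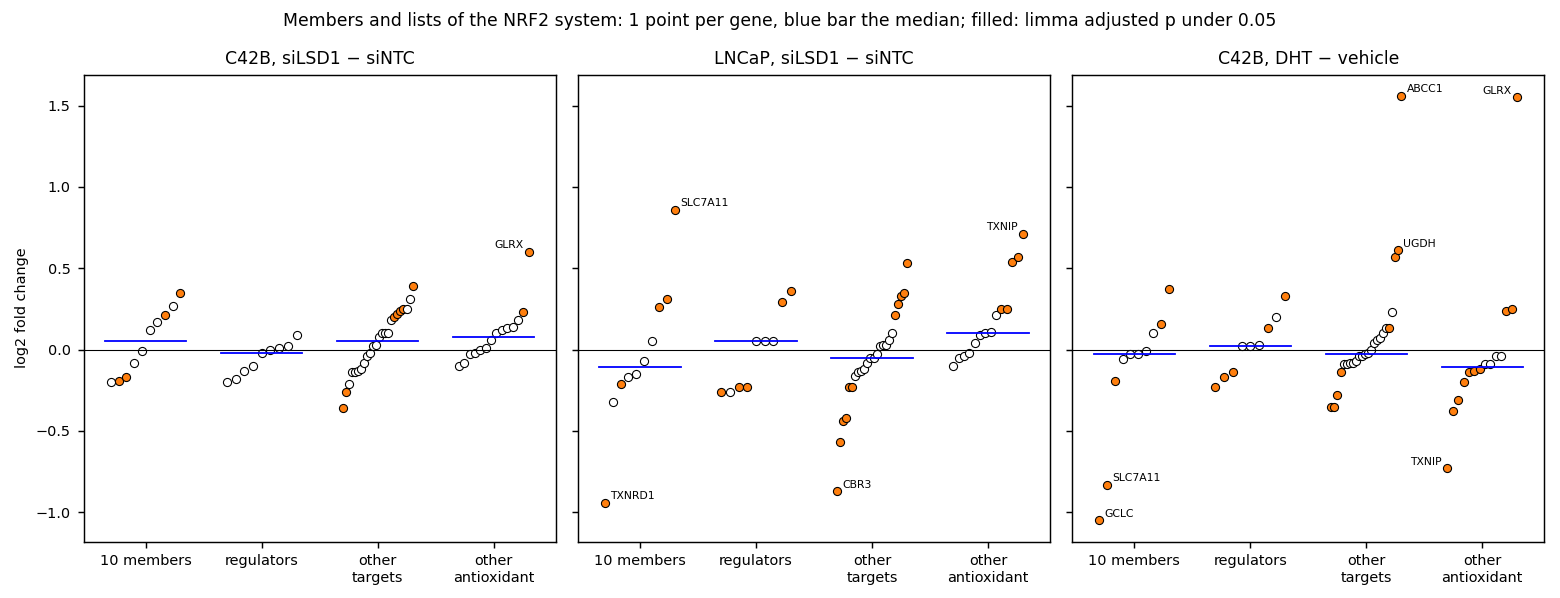
Log2 fold change (vertical axis) of the 10 genes, 9 regulators, 24 further NRF2 targets and 14 other antioxidant genes in the 3 comparisons, 1 point per gene, with a blue bar at each median; filled points passed, and genes with a change of at least 0.6 in size are named. All medians lie between −0.11 and 0.11, with single genes such as ABCC1 (1.56) and GLRX (1.55) with DHT far above them.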

How the data were processed

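RNA from 20 arrays in 6 groups was analysed. The authors deposited intensity values per probe set on a linear scale, from 4.34 to 36333, for which the submitters' processing notes name RMA and affy; the sources used here give neither versions nor whether all arrays were normalized together. More than 1 labelling kit is named without its samples. Here log2 was taken. Of 54675 probe sets, 41097 name 1 gene and 1801 several in the platform annotation; symbols were updated by gene ID for 41043. No probe set was removed as dim.

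Each comparison was fitted across all genes on its own arrays with lmFit and eBayes (limma 3.58.1, R 4.3.3), two-sided, with Benjamini-Hochberg adjustment; the difference between lines was a contrast over the 12 siRNA arrays. The fit was tested on simulated data. Tables and figures used Python 3.11.15. The number of arrays limits the precision.

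The genes, lists and tests were chosen with earlier results of these data known. By rule, all 10 genes are named, any regulator may be, and so may up to 3 passing genes per direction and further list. Alternatives were a block for replicate number, quantile normalization or median centring, eBayes with a trend and robust, only bright genes, the mean of a gene's probe sets, testing every probe set, and leaving out each array. Replicate numbers were not taken as pairs.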

Additional observations from a re-analysis of the deposited data

Results flagged for a closer look

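In the androgen experiment, with 4 arrays per group, a lone array stood apart in 2 of the 22 groups examined (the 10 genes and KDM1A, with DHT and with vehicle), where chance gives about 1 in 20. TXNRD1 was 12.33 in DHT replicate 1 and 12.38 in the other DHT arrays. ME1 was 12.33 in vehicle replicate 4 and 12.29 in the others.

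The siLSD1 effect differed between C42B and LNCaP, by the contrast over the 12 siRNA arrays, for 6 of the 10 genes, where 5.56% of all genes passed above 0 and 6.07% below. The difference on the log2 scale, C42B minus LNCaP, was 0.75 for TXNRD1, −0.69 for SLC7A11, 0.45 for GCLM, −0.32 for SRXN1, 0.30 for ME1 and 0.28 for KEAP1. For GCLM (0.27 and −0.17) and KEAP1 (0.21 and −0.07) the changes in C42B and LNCaP had opposite signs, and only that of KEAP1 in C42B passed on its own. Among 19 alternatives the difference did not pass in 9 for GCLM and in 7 for KEAP1, each time including the replicate block and several left-out arrays.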

How the results depend on the processing

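At the brightest probe set, or with the mean of a gene's probe sets, each passing change of the 10 genes kept its direction under every alternative run; the dimmest SLC7A11 probe set, tested by itself, fell in LNCaP (−0.25). Over all comparisons and alternatives, 539 of the genes' changes stayed on the same side of the threshold, 52 lost a call and 9 gained one. With DHT 5 or 6 of the genes passed under every alternative. With siLSD1 in C42B 4 passed, but 2 did with the mean of all probe sets, 1 with the replicate block, 1 with every probe set tested, 5 with bright genes only, 6 with trend and robust, and 1 to 5 with an array left out, while all genes passing ranged from 1907 to 3962 (3569 with all arrays). In LNCaP 5 passed, and 3 to 5 with an array left out. With the mean of all probe sets NFE2L2 and GCLC lost their LNCaP calls and GCLM gained one. NFE2L2 also lost its call with every probe set tested, and NQO1 gained one with bright genes only and with trend and robust. The replicate block ended the calls of KEAP1, TXNRD1 and NQO1 in C42B and of NFE2L2 in LNCaP. It also ended those of the KEAP1 and GCLM differences between the lines. Genes of the further lists numbered 9 in C42B (15 with bright genes only, 18 with trend and robust, 3 to 9 with an array left out), 21 in LNCaP (12 without siLSD1 replicate 2) and 8 for the difference (15 and 14 with the former settings, 5 with the replicate block, 4 to 11 with an array left out). Same-numbered treated and control arrays correlated at −0.096 to 0.199 around their group means, and differently numbered ones at −0.241 to 0.192. These ranges overlap, and with 3 or 4 arrays per group they cannot show whether the replicate numbers pair the arrays. The cause of these shifts was not tested.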

Other observations

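Over the 20 arrays, with each experiment's mean subtracted from each gene, the 45 pairs of the 10 genes had a median Pearson correlation of 0.00. The pair most alike was GCLC and SLC7A11 (r = 0.85), followed by KEAP1 and ME1 (r = 0.77). The pairs most opposed were TXNRD1 and SRXN1 (r = −0.82) and NFE2L2 and SLC7A11 (r = −0.75). GCLC and GCLM, subunits of 1 enzyme, had r = −0.63. GCLC and GCLM changed in opposite directions with DHT (−1.05 and 0.37) and with siLSD1 in LNCaP (0.26 and −0.17). In C42B with siLSD1 they changed in the same direction (0.12 and 0.27). These correlations are descriptions: the treatment changes given above were not removed and enter each r. The arrays also share 3 sets of controls, and whether they were normalized together is not given.

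Among 13393 genes with a mean of at least 6, the genes most like SLC7A11 by the same measure were OCLN, which encodes a tight junction protein, HTR2C, a serotonin receptor gene, and FKBP9 (r = 0.98 each). They had higher values with siLSD1 in LNCaP (0.87, 0.95 and 0.54) and lower values with DHT (−0.91, −1.15 and −0.61). That follows from choosing them by this correlation over the same arrays, and is no further likeness. Those most like NQO1 were ZNF211 (r = 0.95), NINJ1 and MDH1 (r = 0.94 each). Those most like NFE2L2 were ZNF638 (r = 0.88), SLC25A13 and ZC3H15 (r = 0.87 each).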
